A study of Mus musculus with 6 samples.

Results

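The SOX genes followed here were Sox4, Sox5, Sox6, Sox7, Sox9, Sox10 and Sox17, chosen by name from the 33697 genes in the count tables. They were 7 of the 19 SOX genes that the tables list by number. Their RNA was measured in 6 droplet-based single-cell RNA-seq libraries of live tdTomato+ cells of the intestinal lamina propria, purified by flow cytometry from Flare-TSLP mice on the C57BL/6 background. These mice carry a tdTomato reporter cassette at the Tslp locus, so the fluorescent protein marks cells in which that locus is transcribed. The libraries fall into 4 groups, the proximal small intestine (proximal jejunum, 2 libraries), the distal small intestine (distal ileum, 2 libraries), the cecum (1 library) and the large intestine (1 library). All groups carry the same reporter allele and none was treated, and the mice were of both sexes and 8 to 12 weeks old. The epithelium had been stripped before digestion, and the cells were sorted on the reporter, so the levels describe that sorted part of the stroma and not whole tissue. No filter on tdTomato UMIs was applied here, whereas the study left out clusters with few tdTomato+ cells. Some immune, epithelial-like, blood endothelial-like and glia-like cells were found among the sorted cells. Whether these cells transcribed the reporter was not tested. Several mice were pooled in each library under hashtag antibodies, but the labels do not tie hashtags to mice. The library was therefore the replicate, and p-values measure the spread between libraries, which may be technical.

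SOX proteins are transcription factors that bind and bend DNA through a high mobility group (HMG) domain, and they are sorted into subgroups by the sequence of that domain. Sox4 belongs to the SOXC subgroup, which is known from progenitor cells and immature tissues. Sox5 and Sox6 form most of the SOXD subgroup, lack a transactivation domain of their own and assist Sox9 in cartilage. Sox9 and Sox10 are SOXE factors, known for cartilage and intestinal crypts in the case of Sox9 and for neural crest and enteric glia in the case of Sox10. Sox7 and Sox17 are SOXF factors of the endothelium, together with Sox18.

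Each gene can be followed in the DNA that encodes its HMG domain. The same 27-base stretch of the coding strand is shown for each gene from the GRCm39 genome (equivalent to mm39) and the GENCODE annotation, as a sample of the domain the family shares. Capitals mark a base that differs from the most common base among the 7 genes at that place, and the SOXD genes Sox5 and Sox6 hold the most of them, 3 and 5.
Sox4: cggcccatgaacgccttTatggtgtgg
Sox5: cgTccAatgaaTgccttcatggtgtgg
Sox6: cgAccAatgaaTgcGttcatggtTtgg
Sox7: cggcccatgaaTgccttcatggtgtgg
Sox9: cgAcccatgaacgccttcatggtgtgg
Sox10: Aggcccatgaacgccttcatggtgtgg
Sox17: cggccGatgaacgccttTatggtgtgg
The stretch lies at chr13:29136798-29136824 on the minus strand in the single exon of Sox4, at chr6:143786973-143786999 (minus) in exon 13 of 15 of Sox5 and at chr7:115088971-115088997 (minus) in exon 13 of 15 of Sox6. It lies at chr14:64181343-64181369 (plus) in exon 1 of 2 of Sox7, at chr11:112673729-112673755 (plus) in exon 1 of 3 of Sox9, at chr15:79047575-79047601 (minus) in exon 2 of 4 of Sox10 and at chr1:4563396-4563422 (minus) in exon 4 of 5 of Sox17. Over the whole coding sequence of the HMG domain, Sox9 and Sox10 were identical at 83.1% of bases, Sox5 and Sox6 at 82.7%, and Sox7 and Sox17 at 79.7%. Pairs taken from different subgroups shared 56.5% to 75.1%. The genes differ greatly in length, from 953553 bases for Sox5 and 568755 bases for Sox6 to the single exon of Sox4, so levels below are compared between cells and never between genes.

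After cell filters, 11751 to 21299 cells per library were kept, and the libraries held 109675337 to 206827504 UMIs (unique molecular identifiers, each standing for 1 captured RNA molecule). Cells were placed into classes by counting how many markers of a fixed list they held, no SOX gene being on any list, and 85123 cells entered a class. Most were fibroblast-like (9270 to 16510 cells per library), and among these, gates were set for cells resembling subepithelial myofibroblasts (SEMFs), telocytes, trophocytes and universal fibroblasts and for cells with Ptn, Scg2 or Gdf10. The other classes were lymphatic endothelial-like cells (LECs), blood endothelial-like cells (BECs), pericyte-like, smooth muscle-like or myofibroblast-like (SMC-like), glia-like, immune and epithelial-like cells. LEC-like cells held a median of 8 of their 8 markers in every library, BEC-like cells 6 of 8 and glia-like cells 6 to 7 of 8. Pericyte-like cells also held a median of 4 to 5 of the 8 smooth muscle markers, and telocyte-like cells 5 to 7 of the 10 SEMF markers, so these gates border on each other. Levels are in CPM, a gene's UMIs summed over the cells of a class in 1 library and scaled to 1000000 UMIs of that sum, and are given for sums of at least 10 cells. Between 38 and 118 cell barcodes were shared by any pair of libraries, which is 0.32% to 0.61% of the smaller one. Barcodes with at most 100 UMIs, which hold free RNA, gave each gene's background and held 2.90% to 3.82% of all UMIs.

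Each member had its own distribution over the stroma. Sox5 was at its highest in pericyte-like and other mesenchymal cells, Sox6 in telocyte-like cells and Sox10 in glia-like cells. Sox17 was at its highest in BEC-like cells and Sox7 in both kinds of endothelium, while Sox4 and Sox9 were spread over several classes. These orders of level describe the data and were not tested as such.

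**Figure D1:**
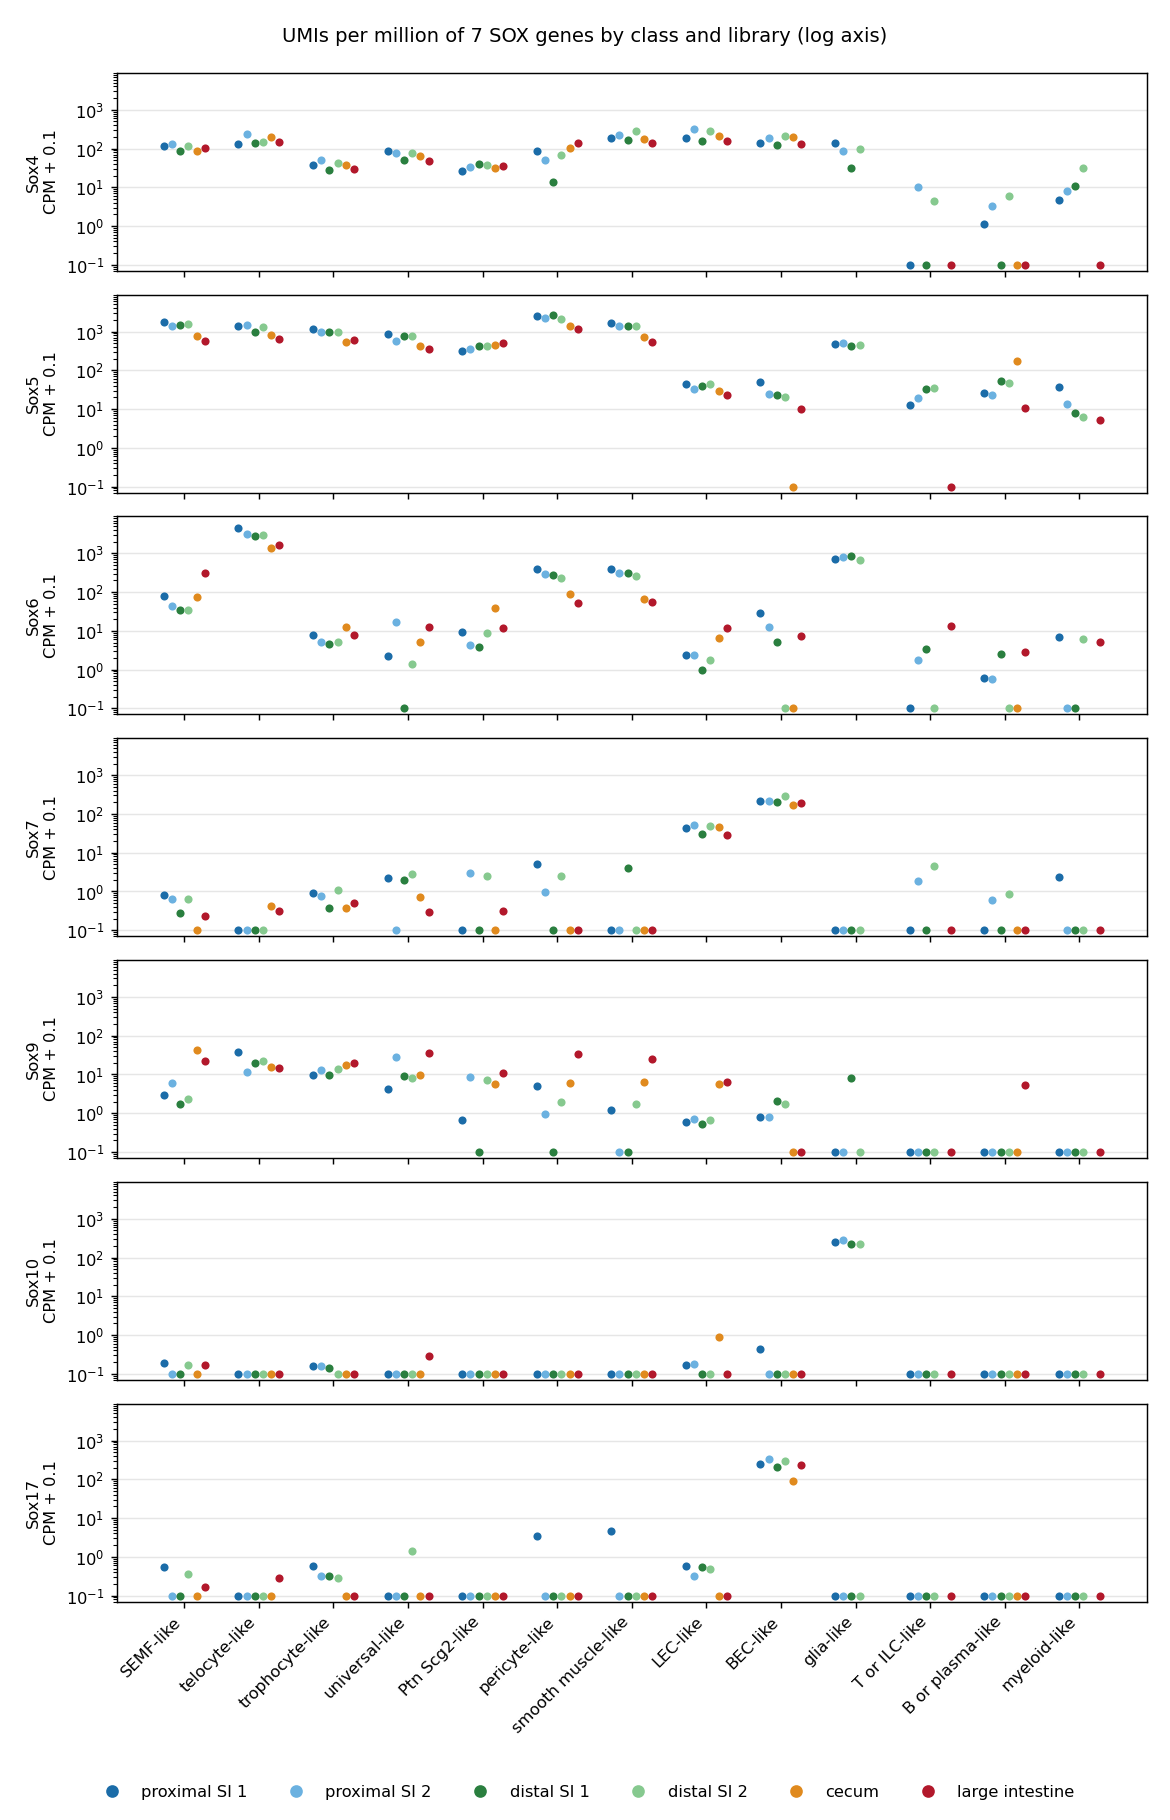
CPM + 0.1 (log axis) of the 7 SOX genes in 13 cell classes, with 1 point per library for class sums of at least 10 cells. Sox10 stands at 220 to 289 CPM in the glia-like sums and Sox17 at 91.7 to 327 CPM in the BEC-like sums, with all other classes far below, whereas Sox4 spans most classes.

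Sox6 was the member most restricted among fibroblasts. In telocyte-like cells, which lie under the epithelium and produce BMP ligands and Wnt5a, its level was 4580.4 and 3241 CPM in the proximal small intestinal libraries, 2831 and 3047 CPM in the distal ones, 1339.7 CPM in the cecum and 1685 CPM in the large intestine. In SEMF-like cells, it was 77.4 and 42.6 CPM in the proximal libraries, 34.2 and 33.6 CPM in the distal ones, 76.9 CPM in the cecum and 319 CPM in the large intestine. All telocyte-like sums lay above all SEMF-like sums. Sox6 UMIs were found in 80.5% to 97.5% of telocyte-like cells, in 3.69% to 47.8% of SEMF-like cells and in 2.65% to 7.60% of trophocyte-like cells. The median depth of these classes was 7067 to 10856, 7478 to 9915 and 7336 to 10059 UMIs per cell.

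The telocyte-like minus SEMF-like difference in Sox6 was 5.32 on the log2 scale (SE 0.60, n = 6 libraries, edgeR adjusted p = 0.00043). Its size depended on the gates, at 2.93 with gates from the odd-numbered markers of each list and 6.95 with SEMF-like cells limited to at most 1 telocyte marker, a limit chosen after seeing the data, and it was called in both. In the comparison of these classes 14.5% of all 13703 genes tested passed an adjusted p of 0.05, 6.94% higher and 7.57% lower in telocyte-like cells, and of the members, 4 of 7 could be tested and 2 were higher, Sox6 and Sox4. Sox5 (−0.19, edgeR adjusted p = 0.362) and Sox9 (0.68, edgeR adjusted p = 0.728) did not pass. Sox9 stood in opposite orders along the bowel, higher in telocyte-like cells in all 4 small intestinal libraries (11.6 to 38.2 against 1.60 to 5.84 CPM) and lower in the cecum (15.1 against 41.9 CPM) and the large intestine (14.6 against 22.1 CPM), a difference between regions that was not tested. The telocyte-like sums of the small intestine rest on few cells, 177 over the 4 libraries, against 416 cells in the cecum and 2666 cells in the large intestine. Malat1, a nuclear RNA, stood at 27745 to 41628 CPM in telocyte-like cells and at 23253 to 27942 CPM in SEMF-like cells. Its part in the Sox6 difference was not tested.

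Sox6 was higher in fibroblast-like cells that held more telocyte markers. These 7 markers were Foxl1, Bmp7, Bmp3, Wnt5a, F3, Lgr5 and Bmp2. In the cecum the level was 12.9, 23.6, 36.5, 327, 909, 1605 and 2555 CPM in cells with 0, 1, 2, 3, 4, 5 and 6 of them. In the large intestine it was 16.7, 30.6, 119, 569, 1218, 1674 and 2310.5 CPM, and in proximal library 1 it was 10.0, 9.74, 24.6, 231, 3741, 4810.2 and 3687 CPM. In both large bowel libraries each step up to 6 markers was higher than the one before it, while the 3 cells with all 7 markers, found in the large intestine, were at 183 CPM. This describes the libraries and was not tested. Where SEMF-like cells were restricted to those with at most 1 telocyte marker, Sox6 was at 23.0 and 15.1 CPM (proximal), 19.0 and 8.15 CPM (distal), 22.1 CPM (cecum) and 86.6 CPM (large intestine). This restriction kept 84.6% to 93.8% of the SEMF-like cells in the small intestine, 63.0% of those of the cecum and 32.4% of those of the large intestine. Sox5 was found in nearly every telocyte-like cell, with Sox6 or without, in 2493 of 2666 such cells in the large intestine and in 2263 of the 2427 that held Sox6.

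**Figure D2:**
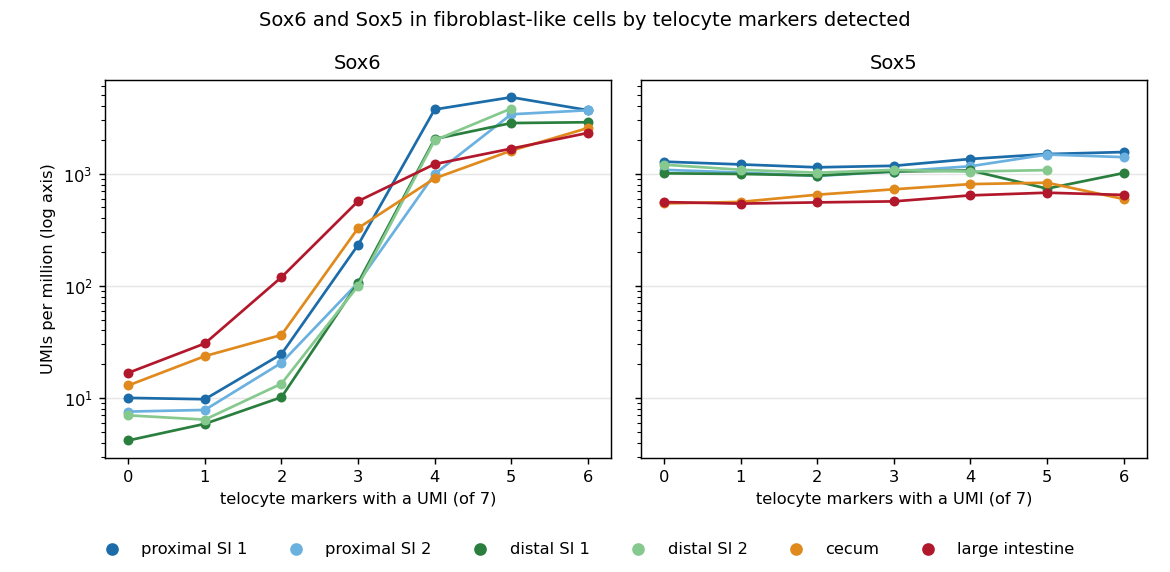
CPM of Sox6 and of Sox5 (log axes) in fibroblast-like cells, grouped by how many of the 7 telocyte markers had a UMI, with 1 line per library and bins of at least 5 cells. Sox6 climbs from 12.9 to 2555 CPM in the cecum and from 16.7 to 2310.5 CPM in the large intestine.

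Class sums of Sox6 were also higher in SEMF-like than in trophocyte-like cells, although most cells of both classes held no Sox6 UMI. In the distal libraries 26 of 705 and 75 of 1697 SEMF-like cells held it, against 328 of 12381 and 155 of 5662 trophocyte-like cells. In the large intestine these were 738 of 1545 against 38 of 500. Trophocyte-like cells held at least 4 of Grem1, Dkk2, Ackr4, Cd34, Adamdec1, Vwc2 and Rspo3, so a cell could pass without Grem1. The place of these cells in the tissue was not measured. In trophocyte-like cells, Sox6 was 7.79, 5.01, 4.51 and 5.04 CPM in the small intestinal libraries, 12.9 CPM in the cecum and 7.93 CPM in the large intestine. All 6 libraries had the SEMF-like sum above the trophocyte-like one, by 3.06 on the log2 scale (SE 0.34, edgeR adjusted p = 0.00031). This size too depended on the gates, at 1.46 with at most 1 telocyte marker in the SEMF-like cells (edgeR adjusted p = 0.0081), 1.81 with even-numbered markers and 3.71 with 1 more marker per gate, and it was 4.09 after subtraction of 10% free RNA. In this comparison 50.1% of the 14848 genes tested were called, 24.8% higher and 25.4% lower, and by edgeR 3 of the 4 members tested were higher in SEMF-like cells and none lower. The fourth, Sox9, was at −1.16 (edgeR adjusted p = 0.105), and DESeq2 called all 4 members, Sox9 lower (−1.34, DESeq2 adjusted p = 0.0161), and limma-voom 2. That count rests on 4 genes, against a background in which a call in either direction was common. The free RNA of the large intestinal library held 366 CPM of Sox6, against 11.9 to 64.5 CPM in the other 5, and its part in the SEMF-like level was not tested.

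Outside the fibroblast gates, Sox6 was found in glia-like, SMC-like and pericyte-like cells. Epithelial-like cells held it too, 8 of 10 in proximal library 1 and 13 of 42 in the large intestine. The SMC-like gate does not tell smooth muscle from myofibroblasts. In glia-like cells it was 696, 817, 869 and 683 CPM in the small intestinal libraries, with UMIs in 85.7% to 96.0% of cells. In SMC-like cells of the small intestine it was 315 ± 54.5 CPM (SD, n = 4) and in pericyte-like cells 299.7 ± 65.1 CPM (SD, n = 4), and these neighbours overlapped. The order of classes in the small intestine was telocyte-like (3425 ± 788 CPM), glia-like (767 ± 91.4 CPM), SMC-like, pericyte-like and SEMF-like (47.0 ± 20.7 CPM, SD, n = 4 each), and apart from SMC-like and pericyte-like cells each of these neighbours had ranges that did not overlap. A gene of the opposite strand, 1110004F10Rik, overlaps Sox6, and whether counting used strand is not given in the sources used here. It stood at 229 CPM in telocyte-like cells and at 87.7 to 103 CPM in SEMF-like, trophocyte-like, LEC-like, pericyte-like and glia-like cells of the small intestine. Gm45025, which also lies within Sox6 on the opposite strand, stood in the small intestine at 42.0 CPM in telocyte-like cells, at 0.685 CPM in SEMF-like cells and at 0.054 CPM in trophocyte-like cells, the same order as for Sox6. Reads of these genes and of Sox6 cannot be told apart if strand was not used. In glia-like cells of the small intestine Malat1 stood at 37808 to 46153 CPM, and its part in the Sox6 level was not tested.

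Sox5, the other SOXD gene, was broad in mesenchyme. In pericyte-like cells, which wrap small vessels, it was 2479 and 2178 CPM in the proximal libraries, 2679.9 and 2076 CPM in the distal ones, 1407 CPM in the cecum and 1184 CPM in the large intestine. In SEMF-like cells it was 1798 and 1419.7 CPM (proximal), 1501 and 1596 CPM (distal), 752 CPM (cecum) and 585 CPM (large intestine). In trophocyte-like cells it was 1165 and 948 CPM (proximal), 984 and 1004 CPM (distal), 543 CPM (cecum) and 589.7 CPM (large intestine). In each of these classes the cecum and the large intestine were the lowest libraries. At least 91.1% of the cells of these 3 classes held a Sox5 UMI in every library.

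Pericyte-like cells exceeded all fibroblast-like cells in Sox5 by 1.01 on the log2 scale (SE 0.12, n = 6 libraries, edgeR adjusted p = 1.8e-05). By edgeR this was the only one of 5 members tested to pass in a comparison in which 40.2% of the 16427 genes were called, 15.4% higher and 24.8% lower. DESeq2 called 3 members, with Sox6 higher (2.21, DESeq2 adjusted p = 0.0271) and Sox9 lower (−1.61, DESeq2 adjusted p = 0.0204), and limma-voom called 2, with Sox7 higher (1.82, limma adjusted p = 0.0046). With the gates rebuilt from the odd-numbered markers of each list it was 0.38 (edgeR adjusted p = 0.193). Sox6 was 2.15 higher in pericyte-like cells but missed the threshold (SE 0.86, edgeR adjusted p = 0.0618). Without the large intestine the Sox6 difference was 2.86 (edgeR adjusted p = 1.0e-05), and in that library telocyte-like cells made up 28.8% of the fibroblast-like cells, the part of which was not tested. With the odd-numbered markers it turned to −2.88 (edgeR adjusted p = 0.0265). Sox5 was higher in SEMF-like than in trophocyte-like cells by 0.28 in 5 of 6 libraries (SE 0.10, edgeR adjusted p = 0.048), a call that was lost under 12 of 18 alternatives. The nuclear RNA Malat1 stood at 31674 to 42697.5 CPM in pericyte-like cells, against 17947.5 to 23955 CPM in all fibroblast-like cells. Its part in the Sox5 difference between these classes was not tested.

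In endothelium Sox5 was far below its level in mesenchyme. It was 44.9, 33.0, 39.0 and 45.2 CPM in LEC-like cells of the small intestine, 29.2 CPM in the cecum and 22.4 CPM in the large intestine. In BEC-like cells it was 51.4 CPM in proximal library 1 and 19.9 to 24.8 CPM in the other 3 small intestinal libraries. T cell or ILC-like, B or plasma cell-like and myeloid-like cells of the small intestine stood at 24.9, 37.8 and 15.9 CPM on average. The LEC-like minus fibroblast-like difference was −4.67 for Sox5 (SE 0.09) and −4.19 for Sox6 (SE 0.28). Glia-like cells held 488, 501, 423 and 441 CPM of Sox5 in the small intestine, and were lower than fibroblast-like cells by 1.42 on the log2 scale (SE 0.17, n = 4 libraries). Free RNA held 441 to 700.3 CPM of Sox5.

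**Figure D3:**
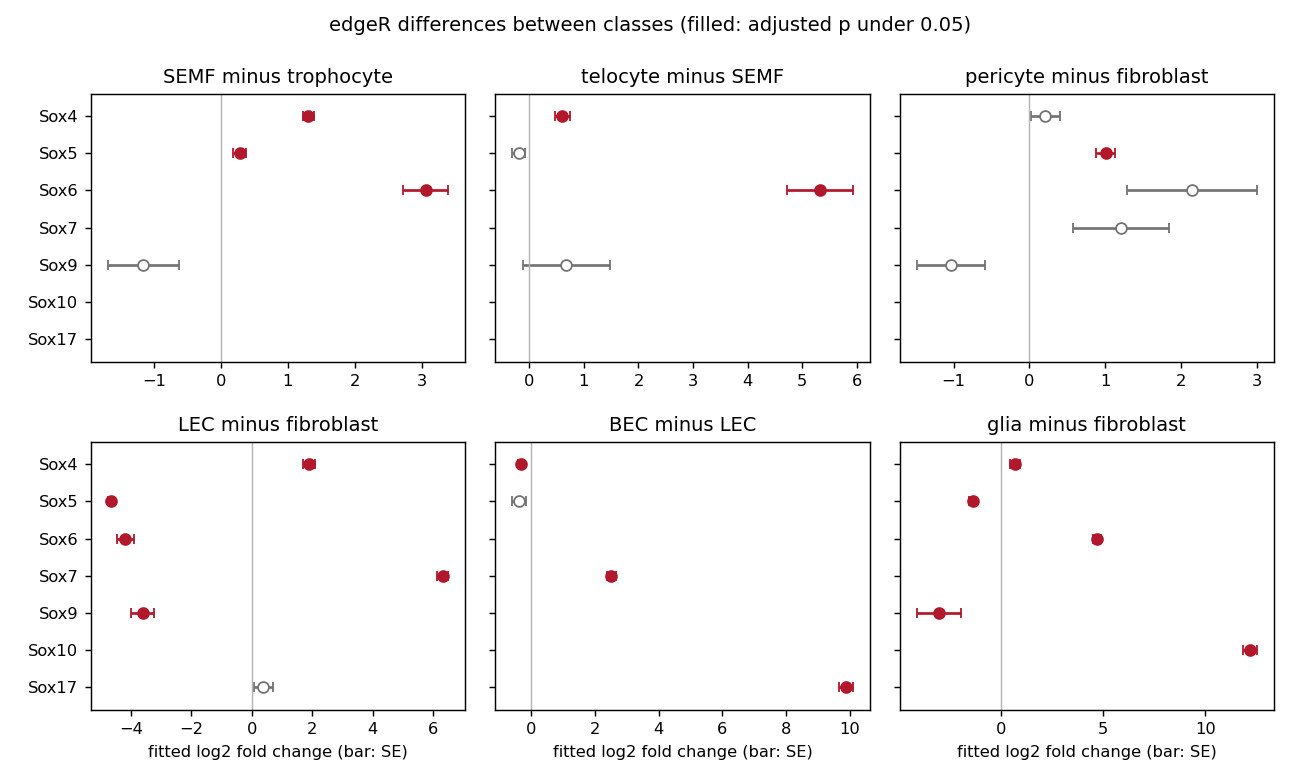
Log2 fold changes of the members in 6 comparisons of cell classes (edgeR, bars show the SE, filled points have an adjusted p under 0.05). Members that were not tested or had an SE over 3 are not drawn. Sox10 in glia-like cells (12.2) and Sox17 in BEC-like cells (9.87) are the farthest to the right.

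The SOXE gene Sox10 marked glia-like cells. It stood at 249 and 289 CPM in the proximal libraries and at 223 and 220.3 CPM in the distal ones, from 49, 28, 25 and 14 cells. UMIs were found in 75.5% of these cells in proximal library 1 (exact 95% interval 61.1% to 86.7%), in 89.3% in proximal library 2 (71.8% to 97.7%), in 68.0% in distal library 1 (46.5% to 85.1%) and in 64.3% in distal library 2 (35.1% to 87.2%). The 4 libraries did not differ beyond these intervals, which cover counting error only. In the large intestine 5 of 6 glia-like cells held Sox10, and in the cecum 0 of 2, too few for a statement. Every other class sum held at most 0.811 CPM. Summed over all libraries, 67464 fibroblast-like cells held 22 Sox10 UMIs, and 0 of 2666 telocyte-like cells of the large intestine held any, which allows a share of cells with a UMI of up to 0.113% and sets no limit on cells expressing the gene. In trophocyte-like cells the share was 0.0688% at most, and free RNA held 0 to 1.04 CPM.

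The glia-like minus fibroblast-like difference in Sox10 was 12.2 on the log2 scale (SE 0.34, n = 4 small intestinal libraries). In that comparison 25.2% of the 16601 genes tested were called, 10.1% higher and 15.1% lower, and 5 of the 6 members tested were called, Sox10, Sox6 (4.68, SE 0.19) and Sox4 (0.66, SE 0.25, edgeR adjusted p = 0.0327) higher and Sox5 and Sox9 lower. The Sox4 call and the Sox9 call, which rests on 1 UMI, were each lost under 7 of 15 alternatives. Erbb3, a neuregulin receptor and known Sox10 target, was at 343 ± 19.5 CPM in glia-like cells (SD, n = 4), and the SOX genes Sox2 and Sox8 stood at 31.7 ± 1.14 and 21.4 ± 7.85 CPM there.

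Sox9 UMIs were found in few cells of most stromal classes. Universal fibroblast-like cells held it in 104 of 453 cells in the large intestine and 96 of 1664 in the cecum. In the small intestine these were 2 of 51 and 12 of 70 (proximal) and 5 of 64 and 6 of 77 (distal). Their level was 9.43 to 35.1 CPM in the large bowel and 4.17 to 27.9 CPM in the small intestine. Glia-like cells of the small intestine held 1 Sox9 UMI in 116 cells. In trophocyte-like cells it was 9.47 and 13.3 CPM (proximal), 9.77 and 13.6 CPM (distal), 17.0 CPM (cecum) and 19.6 CPM (large intestine), with UMIs in 5.76% to 11% of cells. In telocyte-like cells it was 38.2, 11.6, 19.5 and 22.5 CPM in the small intestine, from 22, 5, 6 and 7 UMIs, and 15.1 and 14.6 CPM in the cecum and the large intestine. The telocyte-like and trophocyte-like ranges overlapped. Free RNA held 5.81 to 27.2 CPM of Sox9, as much as most of these classes. In LEC-like cells Sox9 was lower than in fibroblast-like cells by 3.61 on the log2 scale (SE 0.38, n = 6).

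The SOXF genes divided the endothelium. Sox17 stood at 248 and 327 CPM in BEC-like cells of the proximal libraries, at 205 and 303 CPM in the distal ones, at 91.7 CPM in the cecum, where only 14 BEC-like cells were found, and at 235 CPM in the large intestine. In LEC-like cells it was 0.479, 0.217, 0.436 and 0.377 CPM in the small intestinal libraries and 0 in the cecum and the large intestine. Nothing overlapped between the classes. Sox17 UMIs were found in 58.3% to 68.2% of BEC-like cells of the small intestine and in 0.158% to 0.312% of LEC-like cells at median depths of 5285.5 to 6468 and 5384 to 6516.5 UMIs per cell. Trophocyte-like cells, which should lack the gene, held it in 0.145% to 0.393% of cells there, and the LEC-like share did not exceed that range. In the cecum 0 of 226 LEC-like cells held it, which allows a share of cells with a UMI of up to 1.33% and sets no limit on cells expressing the gene.

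Sox7 was present in both classes but higher in blood endothelium. It was 212 and 221 CPM in BEC-like cells of the proximal libraries, 203 and 285 CPM in the distal ones, 170.4 CPM in the cecum and 187 CPM in the large intestine. In LEC-like cells it was 43.2, 53.1, 29.4 and 49.1 CPM in the small intestine, 47.1 CPM in the cecum and 29.1 CPM in the large intestine. Its share of LEC-like cells with a UMI, 15.0% to 25.2%, was far above the 0.207% to 0.918% in trophocyte-like cells. All other class sums held at most 4.89 CPM.

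The BEC-like minus LEC-like difference was 9.87 for Sox17 (SE 0.21, edgeR adjusted p = 1.9e-11) and 2.52 for Sox7 (SE 0.13, edgeR adjusted p = 1.4e-08), each higher in 6 of 6 libraries. In that comparison 53.7% of the 10245 genes tested were called, 27.1% higher and 26.6% lower, so 3 called members of 4 tested are not set apart by their number. The third, Sox4, was lower in BEC-like cells by 0.32 (SE 0.10, edgeR adjusted p = 0.0177), a call that was lost under 6 of 17 alternatives. In proximal library 1, 262 of 420 BEC-like cells held Sox7, 245 held Sox17 and 174 held both. In distal library 1, 73 of 140 held Sox7, 83 held Sox17 and 49 held both. Whether the genes fell in the same cells more often than these shares imply was not tested. Sox18, the other SOXF gene, was at 302 ± 47.8 CPM in BEC-like and at 166 ± 33.2 CPM in LEC-like cells of the small intestine (SD, n = 4), a difference of 0.86 on the log2 scale (SE 0.13). Sox18 is known to switch on Prox1, the LEC regulator, which was itself a gate marker and is therefore not reported.

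LEC-like cells were compared with all fibroblast-like cells over 17625 genes, of which 67.5% were called, 31.6% higher and 35.9% lower. Of the 6 members tested, Sox7 (6.32, SE 0.18) and Sox4 (1.91, SE 0.20) were higher in LEC-like cells, Sox5, Sox6 and Sox9 were lower, and Sox17 did not pass (0.38, SE 0.31, edgeR adjusted p = 0.303). With 67.5% of genes called, the count of 5 of 6 is near the background.

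The SOXC gene Sox4 was the least restricted member. In LEC-like cells it was 185 and 322 CPM in the proximal libraries, 155 and 289 CPM in the distal ones, 209 CPM in the cecum and 158 CPM in the large intestine, with UMIs in 45.3% to 72.1% of cells. In both small intestinal regions replicate 2 was the higher one, and free RNA followed the same order, with 62.3 and 107 CPM of Sox4 in the proximal and 30.0 and 104 CPM in the distal libraries. Its part in the LEC-like level was not tested. The means of LEC-like (238 ± 80.2 CPM), SMC-like (211 ± 51.2 CPM), BEC-like (164 ± 37.9 CPM) and telocyte-like cells (162 ± 47.1 CPM, SD, n = 4 each) in the small intestine did not differ beyond their spread between neighbours.

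Among fibroblasts Sox4 was graded. In SEMF-like cells it was 118 and 133 CPM (proximal), 86.6 and 114 CPM (distal), 84.3 CPM (cecum) and 101 CPM (large intestine). In trophocyte-like cells it was 36.8 and 49.8 CPM (proximal), 28.6 and 41.2 CPM (distal), 37.5 CPM (cecum) and 29.9 CPM (large intestine). Every SEMF-like sum lay above every trophocyte-like sum. The difference was 1.31 on the log2 scale (SE 0.08, edgeR adjusted p = 2.6e-05). The telocyte-like level, 130.3 to 232 CPM, exceeded the SEMF-like one by 0.60 (SE 0.14, edgeR adjusted p = 0.0146), but with gates from the odd-numbered markers the difference was −0.13 (edgeR adjusted p = 0.889). In T cell or ILC-like and B or plasma cell-like cells of the small intestine Sox4 was 3.68 and 2.53 CPM.

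The region comparisons ask whether the cells of the same gate differ along the bowel. In the study's clustering, a SEMF and a telocyte cluster lay mainly in the large bowel, and trophocytes mainly in the small intestine. A gate can therefore hold different subsets by region. Fibroblast-like cells that passed no fibroblast gate numbered 6621 of 11721 in the cecum and 3261 of 9270 in the large intestine. In the small intestine these were 1559 of 11050 and 1155 of 9321 (proximal) and 2798 of 16510 and 1567 of 9592 (distal). The part of such subsets and ungated cells in the differences below was not tested. The proximal and distal small intestine were compared in SEMF-like, trophocyte-like and LEC-like cells, with 2 libraries each. No member passed in these fits as designed by edgeR, nor by DESeq2 or limma-voom. With the replicate number as a block, a pairing that the labels do not give, Sox6 in SEMF-like cells was called (edgeR adjusted p = 0.0105). In that fit 317 genes were called. Sox9 in SEMF-like cells passed without proximal library 1 (1.52, edgeR adjusted p = 0.0322) and with no filter on low counts (1.14, edgeR adjusted p = 0.0181), and Sox6 with no filter (0.82, edgeR adjusted p = 0.0307). In SEMF-like cells 0.00605% of 16533 genes were called (1 gene, with 512 at an unadjusted p under 0.05, 26 called by DESeq2 and 0 by limma-voom), and Sox6 (0.80, unadjusted p = 0.0305) and Sox9 (1.13, unadjusted p = 0.0263) were under an unadjusted 0.05 by edgeR's quasi-likelihood fit. DESeq2 had 2 members under an unadjusted 0.05 in SEMF-like cells and limma-voom 1. In trophocyte-like cells 0.0829% of 19307 genes were called (16 genes, 1085 unadjusted) and in LEC-like cells 0% of 14714 (0 genes by edgeR and limma-voom, 529 and 715 unadjusted, and 19 by DESeq2). In simulated data of the SEMF-like comparison with 200 genes changed by 2-fold, 40.5% of the changed genes were recovered, so differences of this size can be missed.

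The cecum and the large intestine together were compared with the small intestine in the same fits, each of them being 1 library, so their spread was taken from the small intestinal pairs. In SEMF-like cells, 31.4% of 16533 genes were called, 17.6% higher and 13.8% lower. Of the 5 members tested, Sox9 and Sox6 were higher in the large bowel and Sox5 was lower by edgeR. Sox7 was at −3.72 (SE 1.16, edgeR adjusted p = 0.0501), from 27 UMIs in the small intestine and 2 in the large bowel, and was called in 6 of 13 settings, among them limma-voom (−2.69, limma adjusted p = 0.0462) but not DESeq2. In simulated data of this comparison 22.8% of the calls were false. Region and library cannot be told apart for the cecum and the large intestine. Both carried the hashtag set of proximal and distal library 1, while proximal and distal library 2 carried another set. Region and hashtag set therefore cannot be fully told apart in the fits over all 6 libraries.

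Sox9 had the largest change of the 3 members called in SEMF-like cells. In SEMF-like cells it was 2.79 and 5.84 CPM in the proximal libraries, 1.60 and 2.22 CPM in the distal ones, 41.9 CPM in the cecum and 22.1 CPM in the large intestine, from 32, 109, 9, 34, 661 and 345 UMIs. Both large bowel libraries lay far above all 4 small intestinal ones. The difference was 3.53 on the log2 scale (SE 0.28, edgeR adjusted p = 0.00049) and was called in every alternative run, at 2.80 to 4.005. Cells with a UMI made up 18.4% of SEMF-like cells in the cecum (exact 95% interval 16.7% to 20.2%) and 11.1% in the large intestine (9.61% to 12.8%), against 1.13% to 4.71% in the small intestine. With at most 1 telocyte marker the levels were 36.8 CPM in the cecum and 19.6 CPM in the large intestine, against 1.15 to 5.46 CPM. Free RNA held 21.7 and 27.2 CPM of Sox9 in these libraries, against 5.81 to 13.0 CPM in the small intestine, and its part was not tested. In the cecum the SEMF-like level was above that of free RNA and in the large intestine it was below it. Both large bowel libraries also lay above the small intestinal ones in trophocyte-like, LEC-like, pericyte-like and SMC-like cells. SMC-like cells stood at 6.47 to 25.4 CPM against 0 to 1.68 CPM, with UMIs in 1 of 43 cells (cecum) and 3 of 60 (large intestine). The ranges overlapped in telocyte-like and universal fibroblast-like cells and in the Ptn, Scg2 or Gdf10 gate, and BEC-like cells went the other way.

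Sox6 was higher in SEMF-like cells of the large bowel by 1.98 (SE 0.24, edgeR adjusted p = 0.0023), but the cecum at 76.9 CPM lay within the small intestinal range, which reached 77.4 CPM. The large intestinal library decided this difference. Without it the difference was 0.96 (edgeR adjusted p = 0.0625), without the cecum it was 3.00, and with at most 1 telocyte marker it was 1.66 (edgeR adjusted p = 0.0148). With the 4 libraries of 1 hashtag set alone it was 1.97 (edgeR adjusted p = 0.0899).

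In telocyte-like, pericyte-like and SMC-like cells the Sox6 levels lay in the opposite order. The mean in telocyte-like cells was 2.26 times as high in the small intestine as in the large bowel. It was 4.20 times as high in pericyte-like cells, at 389.6, 292, 283 and 234 CPM in the small intestine against 89.8 CPM in the cecum and 53.0 CPM in the large intestine. In SMC-like cells it was 5.27 times as high, at 388, 305, 311 and 256 CPM against 64.7 and 54.8 CPM. In all 3 classes the large bowel libraries were the lowest, which gave an exact permutation p of 0.133 (two-sided), the smallest that 4 libraries against 2 allow. Taken over all fibroblast-like cells the reverse held, with 14.2 to 47.1 CPM in the small intestine, 82.7 CPM in the cecum and 605 CPM in the large intestine. Telocyte-like cells were 0.242% to 0.652% of fibroblast-like cells in the small intestine, 3.55% of those of the cecum and 28.8% of those of the large intestine.

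Sox5 was lower in the large bowel in SEMF-like and trophocyte-like cells, and its levels lay in that order in most other classes. The difference was −1.07 in SEMF-like cells (SE 0.25, edgeR adjusted p = 0.0205) and −0.78 in trophocyte-like cells (SE 0.20, edgeR adjusted p = 0.045). The first call was lost without proximal library 1 (edgeR adjusted p = 0.109), proximal library 2 (edgeR adjusted p = 0.0570) or the large intestine (edgeR adjusted p = 0.0972), and the second under 8 of 17 alternatives. In trophocyte-like cells 15.9% of 19307 genes were called, 6.98% higher and 8.93% lower, and Sox5 was the only one of 6 members tested to pass. Sox6 (0.94, edgeR adjusted p = 0.0521) and Sox9 (0.74, edgeR adjusted p = 0.0527) did not, although DESeq2 called all 3 of these members and Sox6 was called in 9 and Sox9 in 7 of the 18 settings run. Over these settings Sox6 ranged from −4.40, after subtraction of 10% free RNA, to 3.24. The mean Sox5 level in the small intestine was 2.36 times that of the large bowel in SEMF-like, 1.81 times in trophocyte-like, 1.75 times in telocyte-like, 1.88 times in universal fibroblast-like, 1.82 times in pericyte-like and 2.33 times in SMC-like cells, with ranges that did not overlap in any of these 6 classes (exact permutation p = 0.133 each, two-sided). The ranges were also apart in endothelium, where Sox5 was far lower, at 22.4 and 29.2 CPM against 33.0 to 45.2 CPM in LEC-like cells (−0.71, SE 0.21, edgeR adjusted p = 0.0549, called in 6 of 17 settings) and at 0 and 10.0 CPM against 19.9 to 51.4 CPM in BEC-like cells, from 11 UMIs in the large bowel. The gate of cells with Ptn, Scg2 or Gdf10 went the other way, with 308, 347, 421 and 412 CPM in the small intestine, 464 CPM in the cecum and 502 CPM in the large intestine. Malat1, a nuclear RNA, stood at 23253 and 24039 CPM in SEMF-like cells of the large bowel, against 23695 to 27942 CPM in the small intestine, and at 15011 and 20580.3 CPM against 19601 to 22442 CPM in trophocyte-like cells. Its part in the Sox5 difference was not tested. Free RNA held Sox5 at 451 CPM in the cecum and 441 CPM in the large intestine, against 537 to 700.3 CPM in the small intestine. The LEC-like and BEC-like levels lay below that of free RNA in every library. The part of free RNA in the Sox5 differences was not tested. Of all cells with at least 4 trophocyte markers, 886 of 1001 in the cecum and 688 of 936 in the large intestine held just 4. In the small intestine these were 2781 of 9202 and 2007 of 7493 (proximal) and 5264 of 15530 and 2772 of 8466 (distal). The part of such cells in the trophocyte-like differences was not tested.

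**Figure D4:**
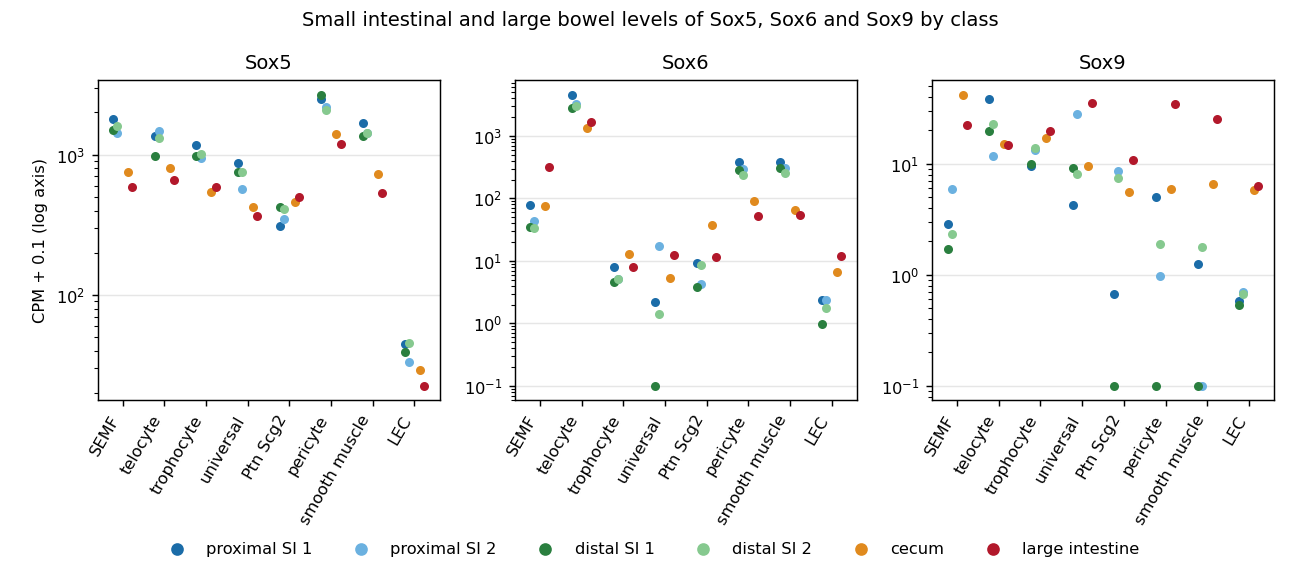
CPM + 0.1 (log axis) of Sox5, Sox6 and Sox9 in 8 cell classes, with 1 point per library, in the small intestine (4 libraries) and the large bowel (2 libraries). Sox9 in SEMF-like cells stands at 22.1 and 41.9 CPM in the large bowel against 1.60 to 5.84 CPM, while Sox5 in SEMF-like cells stands at 585 and 752 CPM against 1419.7 to 1798 CPM.

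In LEC-like cells 15.5% of 14714 genes were called between large bowel and small intestine, 6.49% higher and 9.02% lower, and Sox9 (3.38, SE 0.48, edgeR adjusted p = 0.0047) and Sox6 (2.23, SE 0.39, edgeR adjusted p = 0.0104) were the 2 of 5 members called, both higher. These rest on few molecules, 7 and 13 Sox9 UMIs and 8 and 25 Sox6 UMIs in the cecum and the large intestine. The levels, 5.68 and 6.21 CPM of Sox9 and 6.49 and 11.9 CPM of Sox6, were below those of free RNA in the same libraries (21.7 and 27.2 CPM of Sox9 and 64.5 and 366 CPM of Sox6). The part of free RNA in these differences was not tested. After subtraction of 10% free RNA neither gene had enough counts to be tested. The Sox6 call was lost without the large intestine (1.79, edgeR adjusted p = 0.108) and with doublets left in (1.14, edgeR adjusted p = 0.289).

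The 12 other SOX genes were followed in the same fits. Sox12 and Sox13 were higher in SEMF-like than in trophocyte-like cells (1.55 and 0.37) and Sox8 was lower (−1.62), 3 of 4 tested where 50.1% of all genes were called. Between BEC-like and LEC-like cells both genes tested were higher in BEC-like cells (27.1% of all genes), Sox18 and Sox13, and Sox13, the third SOXD gene, stood at 106 CPM in BEC-like, 20.7 CPM in LEC-like and 66.8 CPM in pericyte-like cells of the small intestine. Sox13 was also the only one of 6 higher in pericyte-like than in fibroblast-like cells (1.21, SE 0.16, against 15.4% of all genes). In LEC-like against fibroblast-like cells, Sox18 was higher and Sox8, Sox12, Sox13 and Sox30 were lower of 6 tested, against 67.5% of all genes called, and in glia-like cells Sox2 and Sox8 were higher of 7, against 10.1% of all genes. In the large bowel Sox11, a SOXC gene, was higher in trophocyte-like (2.85) and LEC-like cells (3.34) and Sox13 was lower in trophocyte-like cells (−0.84). Sox18 was lower in SEMF-like cells (−5.25, SE 1.10). The shares of all genes called were 15.9%, 15.5% and 31.4% in trophocyte-like, LEC-like and SEMF-like cells. Sox18 stood 8.11 higher on the log2 scale in LEC-like than in fibroblast-like cells. LEC-like cells numbered 226 (cecum) and 247 (large intestine), against 712 to 5439 per small intestinal library. The part of free RNA in the Sox11 and Sox18 differences was not tested. None of the 3 other SOX genes tested was called between telocyte-like and SEMF-like cells, where 14.5% of all genes were.

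Known targets of SOX factors, leaving out those used as gate markers, were counted as a list of 14, each count being set beside the share of all genes called in that direction. In LEC-like against fibroblast-like cells 3 of 10 tested were higher, the Notch pathway genes Notch1 and Dll4 (7.16) and the tight junction gene Cldn5 (8.86). A further 4 were lower, Col9a1, Vcam1, Mitf and Tubb3 (all genes 31.6% higher and 35.9% lower). The 4 SOXF targets tested went both ways, Notch1, Dll4 and Cldn5 being higher and Vcam1 lower (−4.01). Between BEC-like and LEC-like cells Dll4 (0.63) and the adhesion molecule Vcam1 (4.03) were higher and Notch1, Mitf and Cldn5 lower of 6 tested (27.1% and 26.6%). In glia-like cells 4 of 10 were higher and none lower, Erbb3 (9.86), Tubb3 (4.22), Notch1 (2.84) and Mitf (0.69), where 10.1% of all genes were higher and 15.1% lower. In pericyte-like cells Notch1, Dll4 and Tubb3 were higher and Vcam1 and Mitf lower of 9 (15.4% and 24.8%). In SEMF-like against trophocyte-like cells Notch1 (1.08) and Vcam1 (1.76) were higher and Mitf (−0.61) lower of 8 (24.8% and 25.4%), and in telocyte-like against SEMF-like cells Notch1, Vcam1 and Tubb3 were lower of 6 (6.94% of all genes higher and 7.57% lower). The cartilage matrix genes that Sox5, Sox6 and Sox9 are known to activate, Col2a1, Acan, Col9a1, Col11a2 and Matn1, were mostly too low to test. Of these 5, 1 was tested in SEMF-like against trophocyte-like cells and 2 in pericyte-like against fibroblast-like cells, none being called in either, and 0 in telocyte-like against SEMF-like cells. The direction of a target was not tested against the level of its factor.

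The genes whose levels were most like those of a member were found over 67 class sums of at least 50 cells from 14 classes, by Pearson correlation of log2(CPM + 1) among 14835 genes. For Sox5 these were Pde1a (0.965), Pla2r1 (0.965) and Gpc6 (0.946). For Sox6 they were Inhba (0.838), Gm45025 (0.836), which lies within Sox6 on the opposite strand, and Sall1 (0.828). For Sox7 they were Adgrl4 (0.962), Acr (0.9605) and Nos3 (0.9595), and for Sox17 AU021092 (0.979), Mal (0.968) and Scgb3a1 (0.966). For Sox4 they were Stard13 (0.927), Btbd3 (0.911) and Msrb3 (0.904), and for Sox9 Htra1 (0.814), Oat (0.813) and Postn (0.804). Sums of 1 class share their cell type and sums of 1 library share their depth, so these values describe the sums and carry no test. No glia-like sum reached 50 cells, and none is named for Sox10.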

How the data were processed

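Each library was a table of raw UMI counts per gene and barcode, deposited by the authors together with the counts of 6 hashtag antibodies. Per the labels the counts were made with Cell Ranger 8.1.0 on mm39 with the tdTomato sequence added, while the matrix headers name 8.0.1. The doublet removal, free-RNA correction and clustering in the study's methods came after these values. Whether strand and introns were counted is not given in the sources used here.

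A barcode was taken as a cell if it held 1000 to 7500 genes and 2500 to 40000 UMIs, with mitochondrial genes giving under 10%. Cells with several hashtags (8.39% to 13.8%) or several lineages were left out as likely doublets. Gates asked for a minimum number of detected markers, for example 4 of 7 for telocytes, 5 of 10 for SEMFs (telocytes excepted), 4 of 7 for trophocytes, 5 of 8 for both endothelial classes and 4 of 8 for pericytes and glia. The markers were listed first, and the thresholds were set on marker counts without SOX values. The Ptn, Scg2 and Gdf10 gate asked for 2 of 3 and is called by its genes. A doubled symbol, Nrg1, was summed.

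Counts were summed per class and library (at least 10 cells) and tested with edgeR 4.0.16 (quasi-likelihood, TMM, filterByExpr, R 4.3.3), two-sided, with Benjamini-Hochberg adjustment over all genes tested. Class comparisons had the library as a block. Region comparisons had 6 libraries in 4 groups, with 2 residual degrees of freedom. DESeq2 1.42.0, limma-voom (limma 3.58.1), other filters and other gates were alternatives. In simulated data with 200 genes changed 2-fold, 80% were recovered between SEMF-like and trophocyte-like cells (4.76% of calls false), 88% between endothelial classes (9.19%), 44.9% between large bowel and small intestine (22.8%) and 40.5% between proximal and distal SEMF-like cells (19.4%).

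Named genes were the 7 members, 12 other SOX genes, known SOX targets (without those used as gate markers) and the 3 genes most correlated with each member. The members, gene lists and tests were chosen with earlier results of these data known. Python 3.11.15, scipy 1.17.1 and matplotlib 3.10.9 were used for shares, exact intervals, permutations and plots.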

Additional observations from a re-analysis of the deposited data

Results flagged for a closer look

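In 3 of 34 groups of 4 small intestinal libraries, 1 library stood apart by Dixon's test, which chance alone gives in about 1 of 20 groups. Sox4 in telocyte-like cells was 232 CPM in proximal library 2, from 36 cells, against 130.3 to 145 CPM in the other 3. Sox5 in BEC-like cells was 51.4 CPM in proximal library 1, against 19.9 to 24.8 CPM. Sox6 in trophocyte-like cells was 7.79 CPM in proximal library 1, against 4.51 to 5.04 CPM.

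The change between large bowel and small intestine differed between classes for 3 of the 9 differences tested by an interaction term in edgeR, all chosen after seeing the data. For Sox9 it was 2.61 higher on the log2 scale in SEMF-like than in trophocyte-like cells (SE 0.44, edgeR adjusted p = 0.0119), where 11.4% of 16430 genes were called. Sox9 was higher in the large bowel in both classes, at 31.98 against 3.11 CPM on average in SEMF-like cells and at 18.3 against 11.6 CPM in trophocyte-like cells. For Sox6 it was 4.42 higher in SEMF-like than in pericyte-like cells (SE 0.46, edgeR adjusted p = 3.9e-06), where 8.05% of 13993 genes were called. Sox6 was higher in large bowel SEMF-like cells, mostly in the large intestine, and lower in pericyte-like cells. For Sox4 it was −1.17 (SE 0.29, edgeR adjusted p = 0.0156), with pericyte-like cells at 101 and 136 CPM in the large bowel against 13.5 to 84.8 CPM in the small intestine, and SEMF-like cells at 84.3 and 101 CPM against 86.6 to 133 CPM.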

How the results depend on the processing

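Of 25 member differences that passed, 372 of 421 alternatives kept the call, 48 lost it and 1 reversed it, Sox4 between telocyte-like and SEMF-like cells (−0.13 with odd-numbered markers). Of 36 that did not pass, 507 of 589 alternatives left them so, 49 made a call and 33 turned the direction. The cause was not tested. Among class comparisons, Sox6 in pericyte-like cells turned to −2.88 with odd-numbered markers, where the pericyte class held 18 to 71 cells per library, and Sox9 in telocyte-like cells to −0.19 by limma-voom and spanned −0.094 to 1.86 with 1 library left out. In SEMF-like cells, Sox5 between proximal and distal turned to −0.0024 with even-numbered markers (−0.16 to 0.20 with 1 library left out), and Sox4 in the large bowel to 0.013 with 1 hashtag set (−0.22 to 0.024). In trophocyte-like cells, proximal against distal, Sox6 turned to −0.32 after subtraction of 10% free RNA and Sox9 to 0.087 with 1 more marker per gate (−0.27 to 0.17 with 1 library left out), and Sox5 spanned −0.10 to 0.25. In large bowel trophocyte-like cells Sox4 turned to 0.038 with odd-numbered markers, 0.29 with even-numbered markers and 0.12 with 1 hashtag set (−0.36 to 0.036 with 1 library left out), and Sox6 to −4.40 after free-RNA subtraction. In LEC-like cells, Sox4 between proximal and distal spanned −0.25 to 0.76 and Sox5 −0.33 to 0.10 (0.10 with 1 more marker), and in the large bowel Sox4 turned to 0.11 and Sox7 to 0.0033 with 1 hashtag set, Sox7 spanning −0.68 to 0.027. Among members at low levels, Sox17 turned to −0.62 in LEC-like against fibroblast-like cells with even-numbered markers and Sox7 to 2.14 in glia-like cells by limma-voom. Proximal against distal, Sox7 turned to −0.11 in SEMF-like cells with doublets left in and spanned −0.34 to 1.33 in trophocyte-like cells with 1 library left out, and Sox9 in LEC-like cells turned to −0.043 with doublets left in and −0.024 with even-numbered markers (−0.15 to 0.39).

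The number of genes called moved by over 1.5 times as follows. SEMF-like against trophocyte-like cells gave 4250 without the library block (7439 with it). Telocyte-like against SEMF-like cells gave 1324 with 1 more marker, 737 with odd-numbered markers, 1303 with even-numbered markers and 1085 without the block (1989 as reported). Glia-like cells gave 6900 by limma-voom (4190) and pericyte-like cells 2242 with odd-numbered markers (6596). Proximal against distal gave, in SEMF-like cells, 26 by DESeq2, 238 with no filter on low counts, 7 with odd-numbered markers and 0 by limma-voom, after free-RNA subtraction, with doublets left in, with 1 more marker and with even-numbered markers (0 to 104 with 1 library left out). It gave, in trophocyte-like cells, 138 by DESeq2, 10 with no filter and 0 by limma-voom and with doublets left in (0 to 90), and, in LEC-like cells, 19 by DESeq2, 150 with no filter and 1 after free-RNA subtraction (0 to 53). Large bowel against small intestine gave 2507 with 1 hashtag set in SEMF-like cells (2329 to 7186 with 1 library left out, 2329 without the cecum and 3177 without the large intestine), and in LEC-like cells 3811 with no filter (812 to 4161, 812 without the cecum and 1040 without the large intestine). In trophocyte-like cells it gave 1309 by limma-voom, 1236 with 1 more marker, 1395 with even-numbered markers and 987 with 1 hashtag set (732 to 5742, 732 without the cecum).

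The labels tie the replicate numbers of the proximal and distal libraries to no shared animal, batch or day, although same-numbered libraries carried the same 3 hashtag antibodies. Deviations of same-numbered libraries correlated at 0.434, 0.498 and 0.333 across genes in SEMF-like, trophocyte-like and LEC-like cells. With the replicate number as a block, 317, 752 and 112 genes were called between proximal and distal in these classes, and Sox6 in SEMF-like cells was called (0.71, edgeR adjusted p = 0.0105).

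Depth limits the shares of cells with a UMI. Thinned to 2500 UMIs per cell, the small intestinal means were 37.2% for Sox4 in LEC-like cells (59.9% unthinned), 99.0% for Sox5 in pericyte-like cells (99.8%, and 99.3% with 1 more marker), 37.2% for Sox7 (63.8%) and 39.96% for Sox17 in BEC-like cells (63.3%), 2.44% for Sox9 in trophocyte-like cells (7.44%) and 46.4% for Sox10 in glia-like cells (74.3%).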

Other observations

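Epithelial-like cells passed the sort in small numbers. In the large intestine the sum of 42 such cells, 33 of them with a Sox9 UMI, stood at 181 CPM of Sox9. This was the highest Sox9 level of any class sum of at least 10 cells. Pericyte-like cells of the large intestine held Sox9 at 34.4 CPM, from 52 UMIs, against 5.79 CPM in the cecum and 0 to 4.89 CPM in the small intestine.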
